A study of Homo sapiens with 6 samples.

Results

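Polycomb repressive complex 2 (PRC2) was followed through 10 of its subunit genes in T47D breast cancer cells that had received an siRNA against HOTAIR-N or a control siRNA. The genes were chosen by name: the methyltransferases EZH2 and EZH1, the other core subunits SUZ12, EED and RBBP7, the Polycomb-like accessory subunits PHF19, PHF1 and MTF2, and the accessory subunits AEBP2 and JARID2. All 10 were found among the 27968 genes of the deposited tables, where they have 37 RefSeq transcripts. T47D is an established human luminal breast cancer line that carries the estrogen receptor, and HOTAIR is a long noncoding RNA of the HOXC cluster that has been reported to bind PRC2.

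The HOTAIR-N siRNA group and the control siRNA group each held 3 libraries, which the series describes as separate transfections of this 1 cell line. Both groups received the same lipid transfection reagent, and total RNA was taken 48 h later, depleted of ribosomal RNA and made into stranded libraries. The p-values below therefore measure the spread between transfections of 1 line and 1 siRNA per group. The sources used here give neither the siRNA sequences nor what sets HOTAIR-N apart from other HOTAIR transcripts.

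PRC2 places methyl groups on lysine residues of histone H3 and gives the mark H3K27me3, which is tied to gene silencing. EZH2 or EZH1 carries the catalytic domain, SUZ12 is the scaffold on which the complex assembles, EED binds the finished mark and stimulates the enzyme, and RBBP7 or its close relative RBBP4 contacts histones. Accessory subunits bind SUZ12 in alternative sets: a Polycomb-like protein in 1 class of complex, and AEBP2 with JARID2 in the other. In breast cancer, EZH2 is known as a gene whose level follows cell proliferation, and EZH1 as the form that is kept in cells that divide little.

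The promoters of the subunit genes are shown first, because several hold letters that the E2F factors of the cell cycle are known to bind. In RefSeq (GRCh38.p14) all 10 genes were matched by symbol to 14 promoter windows, each from 250 bases before to 50 bases after a start. The octamers TTTCCCGC, TTTCGCGC, TTTGCCGC and TTTGGCGC were searched on both strands, with matches counted per window. A match stood in 6 of the 14 windows, which belong to 6 of the 10 genes (AEBP2, EZH1, EZH2, MTF2, PHF19 and SUZ12). It was found in 3.31% of all 35116 RefSeq promoter windows, which are not limited to expressed genes, and enrichment was not tested. The matches of EZH2 and MTF2 lie after the start, by 1 and 5 bases. The stretch around the PHF19 match overlaps an exon of a PHF19 transcript. These motifs were chosen after the expression values had been seen, and a match describes letters and not a bound site. Below, capitals mark the octamer in SUZ12, EZH1 and AEBP2, which lies 189, 115 and 150 bases before the start, at chr17:31936782-31936861 (plus strand), chr17:42745112-42745191 (minus strand) and chr12:19440413-19440492 (plus strand).
SUZ12: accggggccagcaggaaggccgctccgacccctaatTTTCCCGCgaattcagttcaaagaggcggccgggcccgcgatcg
EZH1: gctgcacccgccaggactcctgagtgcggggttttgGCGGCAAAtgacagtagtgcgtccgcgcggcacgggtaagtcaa
AEBP2: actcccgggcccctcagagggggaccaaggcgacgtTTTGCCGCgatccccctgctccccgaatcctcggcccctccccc

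The octamer stood in promoters of genes that were lower with the HOTAIR-N siRNA (SUZ12, EZH2, PHF19, AEBP2 and MTF2) and in that of EZH1, which was higher. CCAAT, the letters bound by the factor NF-Y, stood on either strand in 8 of the 14 windows, which belong to EED, EZH2, JARID2, PHF19, RBBP7 and SUZ12, and in 34.6% of all windows. EZH2 had 4 of them, the most of the 14 windows, and at least that many were found in 0.991% of all windows. That percentage holds for a window taken at random. EZH2 was picked as the highest of 14, so the percentage overstates how unusual it is. The stretch below lies on the minus strand at chr7:148884328-148884391, from 100 to 37 bases before the EZH2 start, and holds 3 of the 4 in capitals, as CCAAT or its complement.
EZH2: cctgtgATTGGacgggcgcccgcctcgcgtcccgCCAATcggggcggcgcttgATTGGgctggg

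The labels were checked on HOTAIR first. HOTAIR had 5.65, 5.63 and 5.68 CPM (counts scaled to library size by TMM) in HOTAIR-N siRNA replicates 1, 2 and 3, against 16.2, 16.1 and 16.6 CPM in the control siRNA replicates. Every HOTAIR-N siRNA library lay below every control library, at 34.7% of control. Library totals were 31777001 to 35259407 expected counts with the HOTAIR-N siRNA and 35106084 to 36707169 with the control siRNA, so that 1 CPM stood for 32.9 to 36.4 counts. The tissue label was met by 10 tested luminal markers, which summed to 8370 to 9240 TPM (a level scaled to transcript length and library) with the HOTAIR-N siRNA and 9190 to 10400 TPM with the control siRNA. Of 13 markers of blood, endothelial, stromal and basal cells, 11 stayed under 1 TPM in every library, and the 13 summed to 11.7 to 14.2 TPM with the HOTAIR-N siRNA and 11.8 to 13.3 TPM with the control siRNA.

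PRC2 subunit mRNAs did not move as a block: SUZ12, EZH2 and PHF19 fell most, AEBP2, PHF1 and MTF2 fell less, RBBP7 fell slightly, EED and EZH1 rose, and JARID2 was not called. By edgeR's quasi-likelihood test at an adjusted p under 0.05, 9 of the 10 genes changed, where 71.1% of the 14919 tested genes changed. The 2 that rose stand beside 36.2% of all tested genes that rose, and the 7 that fell beside 34.8% that fell. The libraries of the 2 groups did not overlap for 9 of the 10, as for 73.4% of tested genes. A fall to under 50% of control was seen in 3 of the 10 subunit genes (SUZ12, EZH2 and PHF19) and in 6.84% of tested genes. With so many genes changed, the number called says little about PRC2, and the sizes and directions below describe it better. The median log2 fold change was -0.61 over the 10 genes and 0.02 over all tested genes. Together the 10 genes took 0.0675% to 0.0697% of all counts with the HOTAIR-N siRNA and 0.0907% to 0.0943% with the control siRNA. In bulk RNA, fewer cells that express a gene and less of its RNA per cell cannot be told apart.

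**Figure D1:**
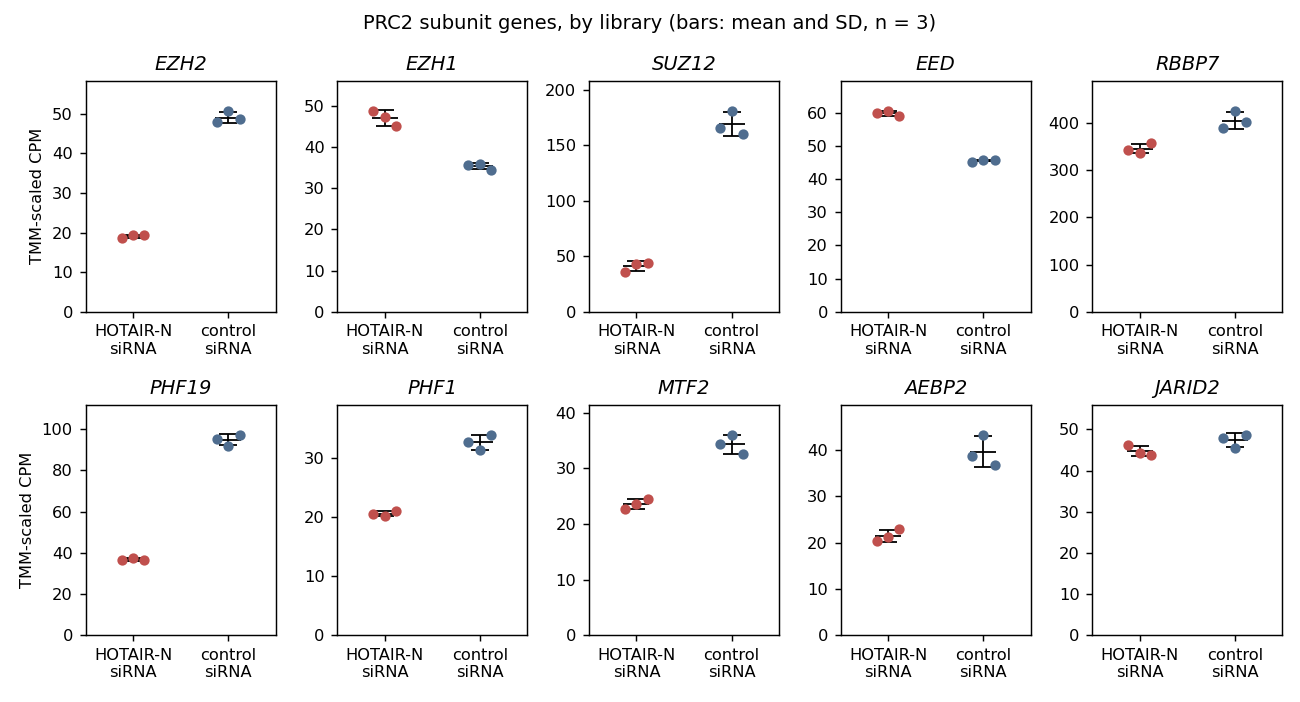
Expression of the 10 PRC2 subunit genes in each library, in TMM-scaled CPM on linear axes that start at 0, with the HOTAIR-N siRNA left of the control siRNA; points are libraries and bars are the mean and SD of 3. The points of the groups are apart in every panel except JARID2, with EZH1 and EED higher after the HOTAIR-N siRNA and the other 7 lower.

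EZH2, the main methyltransferase of dividing cells, had 18.7, 19.4 and 19.3 CPM with the HOTAIR-N siRNA, against 47.9, 50.7 and 48.6 CPM with the control siRNA. Its groups were wide apart, and within each group the libraries differed by at most 0.08 on the log2 scale. EZH2 fell by 1.36 on the log2 scale (SE 0.05, adjusted p = 7.8e-10), to 39% of control, and 3.41% of tested genes were as low or lower in fold change. EZH1, its paralog, had 48.7, 47.3 and 45 CPM with the HOTAIR-N siRNA, against 35.6, 35.9 and 34.5 CPM with the control siRNA. All 3 EZH1 values after the HOTAIR-N siRNA lay above the highest control. EZH1 rose 1.33-fold (log2 0.41, SE 0.05, adjusted p = 2.2e-05), a change that 24.9% of tested genes equalled or exceeded upward.

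The 2 methyltransferase mRNAs thereby changed places in the order of levels. On the TPM scale, which allows levels of different genes to be compared per length, EZH2 made up 40.8%, 42.3% and 43.4% of the EZH1 and EZH2 mRNA with the HOTAIR-N siRNA, against 70.7%, 71.6% and 71.6% with the control siRNA. EZH2 was the lesser of the pair in every HOTAIR-N siRNA library and the greater in every control library. The mean share was 42.2 ± 1.32% with the HOTAIR-N siRNA and 71.3 ± 0.535% with the control siRNA (SD, n = 3 each), a difference of -29.1 percentage points. An exact two-sided permutation test gave p = 0.1, the smallest that 3 libraries against 3 allow, and 0.1 also after adjustment over the 6 shares tested.

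SUZ12, the scaffold, had 36.2, 42.8 and 44.4 CPM with the HOTAIR-N siRNA, against 166, 181 and 160 CPM with the control siRNA. The highest HOTAIR-N siRNA library was far below the lowest control, although SUZ12 also had the widest spread of the 10 genes within the HOTAIR-N siRNA group, 0.29 on the log2 scale. SUZ12 fell by 2.04 on the log2 scale (SE 0.07, 95% interval -2.2 to -1.87, adjusted p = 4.1e-10), to 24.4% of control, and only 0.938% of tested genes were as low or lower in fold change. A near-identical transcribed pseudogene, SUZ12P1, can share reads with it. SUZ12P1 averaged 12.9 ± 0.716 CPM with the HOTAIR-N siRNA and 18.4 ± 1.22 CPM with the control siRNA (SD, n = 3 each) and also fell, to 69.7% of control (adjusted p = 4.4e-05). With the counts of both summed, the log2 fold change was -1.79 (adjusted p = 5.9e-10).

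EED, the subunit that reads H3K27me3, went the other way. EED had 60, 60.5 and 59 CPM with the HOTAIR-N siRNA, against 45.3, 45.7 and 45.8 CPM with the control siRNA. The groups were apart, and EED had the smallest spread of the 10 within each group. It rose 1.31-fold (log2 0.39, SE 0.05, adjusted p = 1.1e-05). RBBP7, the histone-binding subunit and the most abundant of the 10, had 343, 337 and 357 CPM with the HOTAIR-N siRNA, against 389, 425 and 401 CPM with the control siRNA. The groups of RBBP7 did not overlap but lay close together. RBBP7 fell to 85.5% of control (log2 -0.23, SE 0.04, adjusted p = 5e-04), and against a 1.2-fold change it was not past the threshold (adjusted p = 0.76). In GENCODE v29 the end of RBBP7 overlaps TXLNG on the other strand, and the sources used here do not state if reads were counted by strand.

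The core subunits were thus in other proportions after the HOTAIR-N siRNA. SUZ12 over EED, in TPM, was 0.32, 0.376 and 0.398 with the HOTAIR-N siRNA, against 1.94, 2.1 and 1.84 with the control siRNA. SUZ12 mRNA was below EED mRNA in every HOTAIR-N siRNA library and above it in every control library. The sum of EZH1 and EZH2 over EED averaged 0.691 ± 0.005 with the HOTAIR-N siRNA and 1.37 ± 0.0347 with the control siRNA (SD, n = 3 each). RBBP7 over EED averaged 7.18 ± 0.312 with the HOTAIR-N siRNA and 11 ± 0.469 with the control siRNA (SD, n = 3 each). These are ratios of mRNA and not of protein.

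**Figure D2:**
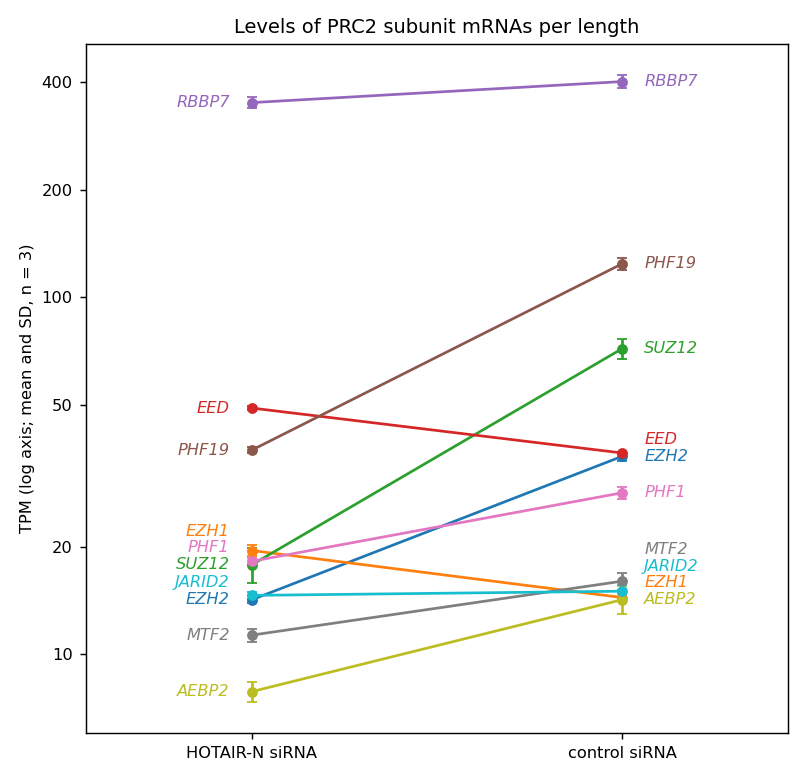
Levels of the 10 subunit mRNAs per length, in TPM on a log axis, with the HOTAIR-N siRNA at the left and the control siRNA at the right; points and bars are the mean and SD of 3 libraries and lines join the same gene. PHF19, SUZ12 and EZH2 lines slope toward lower levels at the left, EED and EZH1 lines toward higher ones, and the SUZ12 and EED lines cross, as do those of EZH2 and EZH1.

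Among the Polycomb-like proteins, which carry a Tudor domain and PHD fingers, PHF19 changed most. PHF19 had 36.4, 37.7 and 36.6 CPM with the HOTAIR-N siRNA, against 95.5, 91.9 and 97.3 CPM with the control siRNA. The groups were wide apart, and PHF19 fell by 1.36 on the log2 scale (SE 0.05, adjusted p = 3.7e-10), to 38.9% of control. PHF1 had 20.6, 20.1 and 21 CPM with the HOTAIR-N siRNA, against 32.7, 31.4 and 33.9 CPM with the control siRNA. All 3 PHF1 values were below the lowest control, and PHF1 fell to 62.9% of control (log2 -0.67, SE 0.06, adjusted p = 5.7e-07). The end of PHF1 overlaps CUTA on the other strand in GENCODE v29, so its counts are uncertain in the same way as those of RBBP7. MTF2 had 22.7, 23.6 and 24.4 CPM with the HOTAIR-N siRNA, against 34.3, 36 and 32.6 CPM with the control siRNA. The groups of MTF2 were apart too, and it fell to 68.7% of control (log2 -0.54, SE 0.06, adjusted p = 5.8e-06).

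Of the other accessory pair, AEBP2 fell and JARID2 was not called. AEBP2, a zinc finger protein that stabilises the complex, had 20.3, 21.2 and 22.9 CPM with the HOTAIR-N siRNA, against 38.7, 43.2 and 36.7 CPM with the control siRNA. No AEBP2 values overlapped, and AEBP2 fell to 54.3% of control (log2 -0.88, SE 0.07, adjusted p = 4.3e-07). JARID2, a DNA-binding relative of the JmjC demethylases that lacks their activity, had 46.2, 44.2 and 43.9 CPM with the HOTAIR-N siRNA, against 48, 45.5 and 48.7 CPM with the control siRNA. The groups of JARID2 overlapped, since HOTAIR-N siRNA replicate 1 was above control replicate 2. Its log2 fold change of -0.08 (SE 0.05, 95% interval -0.2 to 0.03, adjusted p = 0.18) was not past the threshold. With scaling by library totals alone, under which the median log2 fold change of all genes was 0.116 and not 0.018, the JARID2 value was 0.01 (adjusted p = 0.81). Control replicate 2 and HOTAIR-N siRNA replicate 3 each differed most from the other libraries of their group. Without these 2 libraries, JARID2 was called lower (log2 -0.11, adjusted p = 0.029).

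Shares within the accessory mRNAs shifted accordingly. PHF19 made up 41.8 ± 0.55% of the TPM of the 5 accessory genes with the HOTAIR-N siRNA and 62.7 ± 1.06% with the control siRNA (SD, n = 3 each), a difference of -20.9 percentage points. A short transcript of 990 bases held on average 64% of PHF19 TPM with the HOTAIR-N siRNA and 79.5% with the control siRNA. The PHF19 share is therefore not that of the full-length subunit, and it also depends on the mix of PHF19 transcripts. The JARID2 share was 16.4 ± 0.672% with the HOTAIR-N siRNA and 7.58 ± 0.158% with the control siRNA (SD, n = 3 each). PHF1 made up 20.4 ± 0.404% with the HOTAIR-N siRNA and 14.3 ± 0.233% with the control siRNA (SD, n = 3 each). MTF2 made up 12.6 ± 0.304% with the HOTAIR-N siRNA and 8.14 ± 0.611% with the control siRNA (SD, n = 3 each). The AEBP2 share was 8.79 ± 0.405% with the HOTAIR-N siRNA and 7.21 ± 0.814% with the control siRNA (SD, n = 3 each). The libraries did not overlap between groups for any of these 5 shares, each of which had the smallest possible exact permutation p of 0.1. Since the 5 shares add up to the whole, a larger JARID2 share is no rise of JARID2 itself.

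The order of levels followed from these changes. In TPM with the HOTAIR-N siRNA, RBBP7 was highest at 351 ± 11.8, followed by EED at 48.9 ± 0.538, PHF19 at 37.3 ± 0.809 and EZH1 at 19.5 ± 0.67 (SD, n = 3 each). PHF1 at 18.2 ± 0.442 and SUZ12 at 17.8 ± 1.96 came next and overlapped each other, and SUZ12 also overlapped EZH1 (SD, n = 3 each). JARID2 at 14.6 ± 0.355 and EZH2 at 14.2 ± 0.341 overlapped as well (SD, n = 3 each). MTF2 at 11.3 ± 0.46 and AEBP2 at 7.85 ± 0.492 were lowest (SD, n = 3 each). In TPM with the control siRNA, RBBP7 at 402 ± 16.6 was followed by PHF19 at 124 ± 4.87 and SUZ12 at 71.7 ± 4.59 (SD, n = 3 each). In both groups the PHF19 level is mostly that of its short transcript. EED at 36.6 ± 0.0551 and EZH2 at 35.8 ± 0.973 overlapped there, PHF1 had 28.3 ± 1.09, and the neighbours MTF2, JARID2, EZH1 and AEBP2, at 16 ± 0.847, 15 ± 0.617, 14.4 ± 0.358 and 14.2 ± 1.27 TPM, overlapped each with the next (SD, n = 3 each). By its mean SUZ12 stood at rank 6 of the 10 with the HOTAIR-N siRNA and at rank 3 with the control siRNA, and EZH1 at rank 4 with the HOTAIR-N siRNA and rank 9 with the control siRNA.

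Within groups, several genes were highest or lowest in the same library. Control replicate 2 was the highest control library for EZH1, EZH2, SUZ12, RBBP7, AEBP2 and MTF2, and the lowest for JARID2, PHF1 and PHF19. The control libraries of these genes spanned 0.06 (EZH1) to 0.24 (AEBP2) on the log2 scale. Over all genes, control replicate 2 also differed most from its group, and how often it was highest or lowest there was not counted. In the HOTAIR-N siRNA group, replicate 1 was lowest for EZH2, SUZ12, AEBP2, MTF2 and PHF19 and highest for EZH1 and JARID2. For RBBP7 the control libraries spanned 0.13 on the log2 scale, beside a difference of -0.23 between the groups.

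At the level of transcripts, 31 of the 37 RefSeq entries were tested, and 16 were called, 13 lower and 3 higher, where 32% of all 32285 tested transcripts were called. The fall of PHF19 was not shared evenly by its transcripts. NM_001009936, a short form of 990 bases whose GENCODE match has 5 exons and codes for 207 residues, had 372, 342 and 369 expected counts with the HOTAIR-N siRNA, against 1556, 1410 and 1603 with the control siRNA. It fell to 24% of control (log2 -2.06, SE 0.06, adjusted p = 2.7e-05), with the groups wide apart. The long form NM_001286840, whose match codes for 599 residues in 15 exons, had 603, 444 and 598 expected counts with the HOTAIR-N siRNA, against 1181, 953 and 1048 with the control siRNA. This long form fell less, to 52.2% of control (log2 -0.94, SE 0.12, adjusted p = 0.0025). Another called transcript, NM_001286842 (371 residues), fell to 29.2% of control (adjusted p = 0.0057), and the noncoding NR_104601 had a log2 fold change of 0.25 (SE 0.5, adjusted p = 0.77).

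In shares of PHF19 TPM, the short form took 63.7%, 62.9% and 65.4% with the HOTAIR-N siRNA, against 79.3%, 79.1% and 80.2% with the control siRNA. The long form took 21.2%, 16.8% and 21.7% with the HOTAIR-N siRNA, against 12.3%, 11% and 10.7% with the control siRNA. The noncoding NR_104601 took 10.1%, 7.93% and 4.45% with the HOTAIR-N siRNA, against 2.9%, 0.92% and 1.74% with the control siRNA. The shares of none of these 3 transcripts overlapped between the groups, with that of the short form lower and those of the long form and NR_104601 higher after the HOTAIR-N siRNA. Relative to the gene, the log2 change was -0.46 for the short form, 0.32 for the long form and 1.14 for NR_104601. PHF19 was the 1 subunit gene of 10 called for a change of transcript usage (diffSpliceDGE, Simes adjusted p = 0.041), where 6.42% of 7465 genes with at least 2 tested transcripts were called. The call rests on all 6 libraries: the adjusted p lay between 0.066 and 0.28 when any 1 library was left out, and a limma test of the log2 shares gave 0.0068. RSEM divides reads among transcripts that share exons, so counts of single transcripts are estimates and vary more than those of the gene.

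**Figure D3:**
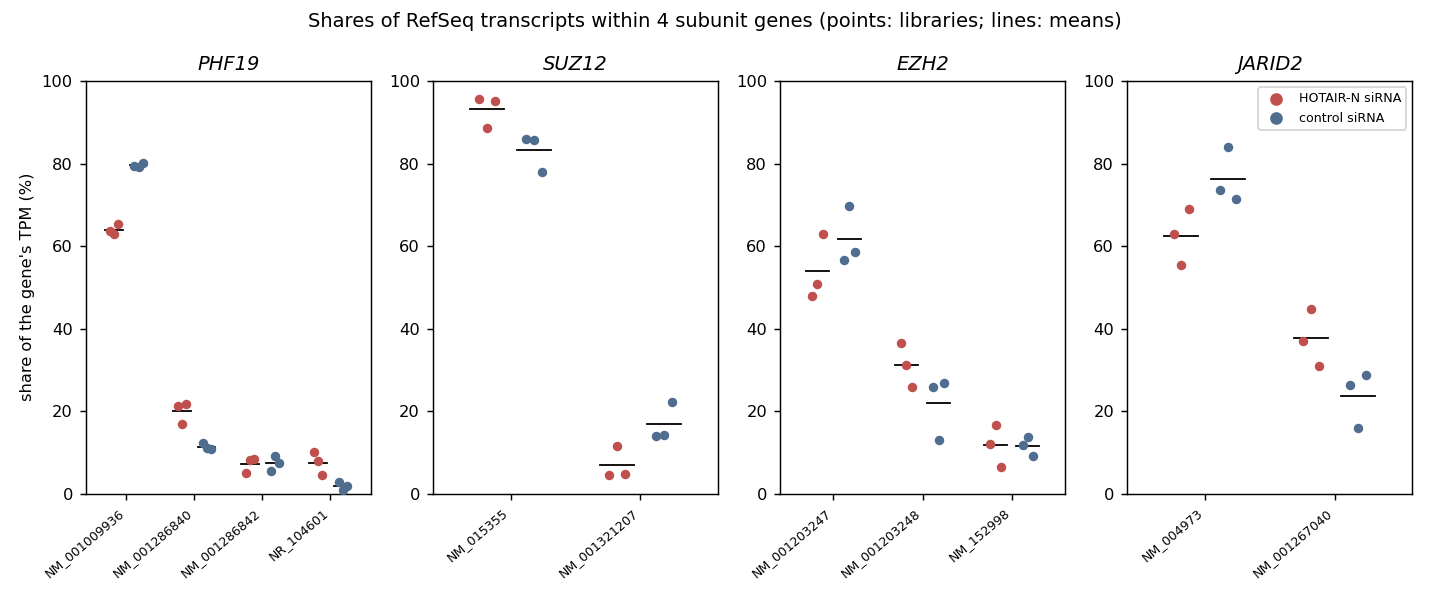
Share of each RefSeq transcript in its gene's TPM for PHF19, SUZ12, EZH2 and JARID2, in percent; points are libraries, with the HOTAIR-N siRNA left of the control siRNA, and lines are means of 3. The short PHF19 form NM_001009936 lies near 64% with the HOTAIR-N siRNA and near 79.5% with the control siRNA, whereas the EZH2 transcripts overlap between groups.

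Both SUZ12 transcripts fell. NM_015355, the full-length form of 739 residues and 16 exons, had 1263, 1248 and 1459 expected counts with the HOTAIR-N siRNA, against 5103, 5210 and 4357 with the control siRNA, a fall to 27.3% of control (log2 -1.87, SE 0.11, adjusted p = 0.00017). NM_001321207, which has 1 exon fewer and 716 residues, had 57, 159 and 73 expected counts with the HOTAIR-N siRNA, against 819, 858 and 1219 with the control siRNA, a fall to 10.2% of control (log2 -3.29, SE 0.46, adjusted p = 0.0036). HOTAIR-N siRNA replicate 2 was the highest of its group for this form. The shorter SUZ12 form took 6.89 ± 3.99% of SUZ12 TPM with the HOTAIR-N siRNA and 16.8 ± 4.6% with the control siRNA (SD, n = 3 each). A change of SUZ12 usage was not called (Simes adjusted p = 0.22), but was without HOTAIR-N siRNA replicate 2 (Simes adjusted p = 0.03).

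Of 5 EZH2 transcripts, 3 fell and 2 were not called. The most abundant, NM_001203247 (746 residues), fell to 34.3% of control (log2 -1.54, SE 0.16, adjusted p = 0.0012), NM_152998 (707 residues) to 40.2% (adjusted p = 0.047) and NM_004456 (751 residues) to 24.2% (adjusted p = 0.025). NM_001203248 (737 residues) had a log2 fold change of -0.83 (SE 0.29, adjusted p = 0.086), which was not past the threshold. The main EZH1 transcript NM_001991 rose (log2 0.44, SE 0.06, adjusted p = 0.0041). Of the EED transcripts, NM_003797 (441 residues) rose with a log2 fold change of 0.41 (adjusted p = 8e-04) and NM_001308007 (466 residues) with 0.63 (adjusted p = 0.023).

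JARID2 held transcripts whose values lay on either side of no change. NM_004973 (1246 residues) had 1094, 834 and 1073 expected counts with the HOTAIR-N siRNA, against 1289, 1301 and 1244 with the control siRNA, and fell (log2 -0.34, SE 0.09, adjusted p = 0.038). NM_001267040 (1074 residues) had 589, 619 and 441 expected counts with the HOTAIR-N siRNA, against 423, 227 and 458 with the control siRNA. The second form overlapped between groups (log2 0.6, SE 0.28, adjusted p = 0.17), and a change of JARID2 usage was not called (Simes adjusted p = 0.46). JARID2 has an antisense gene, JARID2-AS1, in GENCODE v29.

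Of the remaining subunits, RBBP7, MTF2, AEBP2 and PHF1 each had 1 transcript that was called. NM_002893 of RBBP7 fell (log2 -0.23, SE 0.05, adjusted p = 0.012), as did NM_007358 of MTF2 (log2 -0.63, SE 0.08, adjusted p = 0.0026) and NM_153207 of AEBP2 (log2 -0.74, SE 0.14, adjusted p = 0.012). NM_001267043 of AEBP2 (log2 -0.79, SE 0.28, adjusted p = 0.088) was not called. PHF1 is listed with second copies of its accessions, between which the reads cannot be placed with certainty; NR_027692_2 fell (log2 -0.75, SE 0.2, adjusted p = 0.037), and NM_024165 had -0.59 (SE 0.19, adjusted p = 0.06). The calls of NM_152998 and NM_004456 of EZH2, NM_001308007 of EED, NM_004973 of JARID2 and NR_027692_2 of PHF1 were each lost when some single libraries were left out. A transcript that was not called is not shown to be unchanged.

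The other proteins that join or oppose PRC2 were tested as well, and all 5 changed, 3 down and 2 up, where 71.1% of all tested genes changed, so that this count does not set them apart. RBBP4, the relative of RBBP7, averaged 187 ± 4.42 CPM with the HOTAIR-N siRNA and 233 ± 12.4 CPM with the control siRNA (SD, n = 3 each) and fell to 80.2% of control (adjusted p = 6.2e-05). LCORL, whose locus encodes a PALI protein of the Polycomb-like class of complex, averaged 9.14 ± 0.925 CPM with the HOTAIR-N siRNA and 20 ± 2.2 CPM with the control siRNA (SD, n = 3 each) and fell to 45.7% (adjusted p = 4.7e-07). Its paralog LCOR rose to 140% of control (adjusted p = 4.3e-05), and EPOP, which links PRC2 to elongin, fell to 76.6% (adjusted p = 7.8e-05). EZHIP, listed as CXorf67 and known as an inhibitor of the complex, was at a low level and rose 1.54-fold (2.15 ± 0.0887 CPM with the HOTAIR-N siRNA and 1.39 ± 0.24 CPM with the control siRNA, SD, n = 3 each, adjusted p = 4.2e-03). Of the demethylases that remove H3K27me3, KDM6B rose 1.65-fold (50 ± 3.34 CPM with the HOTAIR-N siRNA and 30.3 ± 1.26 CPM with the control siRNA, SD, n = 3 each, adjusted p = 6.6e-07), and KDM6A fell to 85.4% of control (adjusted p = 2.6e-03).

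Because EZH2 is known to follow proliferation, division genes are given beside the subunits. All 20 proliferation markers fell, where 34.8% of all tested genes fell, with a median log2 fold change of -0.79, and their summed level was 1740 to 1770 TPM with the HOTAIR-N siRNA and 2990 to 3130 TPM with the control siRNA. TOP2A, a topoisomerase of dividing cells, fell to 32.5% of control, CCNB1, the mitotic cyclin, to 44.8%, MKI67, the Ki-67 antigen, to 49.6% and the mitotic kinase PLK1 to 44%. Of 19 regulators of E2F-driven transcription, 15 fell, 2 rose and 2 were not called, beside 34.8% that fell and 36.2% that rose among all tested genes, with a median of -0.37. E2F7, a repressor among the E2F factors, fell to 27.7%, LIN52, a subunit of the DREAM complex, to 30.4%, TFDP1, the partner of E2F factors, to 58.5% and FOXM1, a mitotic activator, to 58.3%. Their part in the fall of EZH2, SUZ12 and PHF19 was not tested.

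**Figure D4:**
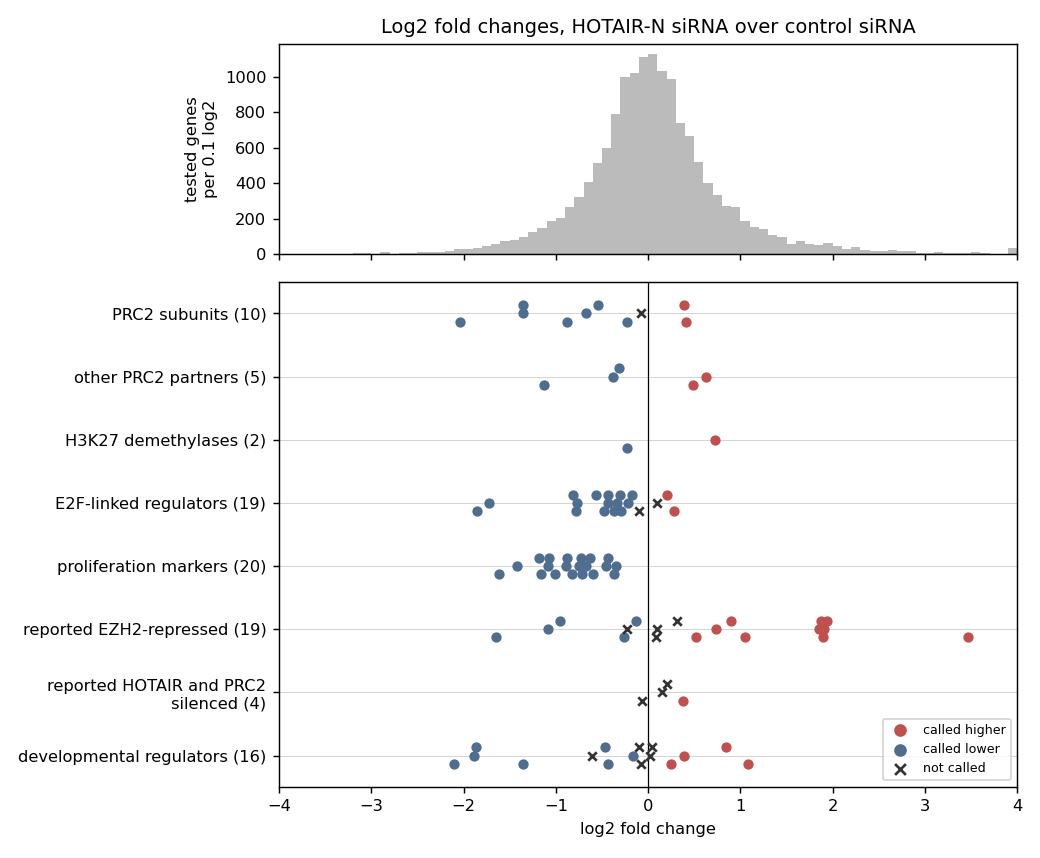
Log2 fold changes of HOTAIR-N siRNA over control siRNA. The top panel counts all 14919 tested genes per 0.1 log2, with values beyond the axis gathered in the end bins, and each row below shows the tested genes of 1 list, with the number in brackets; red points rose, blue points fell and crosses were not called. Subunit genes spread from -2.04 for SUZ12 to 0.41 for EZH1, while all 20 proliferation markers lie left of 0.

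Genes that other studies place under PRC2 control did not all go the same way. The counts below stand beside 36.2% of all tested genes that rose and 34.8% that fell, with a median log2 fold change of 0.02. Of 27 genes reported as repressed by EZH2 in cancer cells, 19 were tested, of which 10 rose, 5 fell and 4 were not called, with a median log2 fold change of 0.52. The 4 with the smallest p-values all rose. CDKN2B, a cyclin-dependent kinase inhibitor, rose 3.6-fold, TNFSF10, the death ligand TRAIL, 3.77-fold, the inhibitor CDKN1A 2.07-fold and CDH1, E-cadherin, 1.86-fold. The 5 that fell included TIMP3, under 1 TPM in every library, at 32% of control, FOXC1 at 47.4% and PEBP1 at 91.6%. CDH1 is also a luminal marker. Of 38 developmental regulators that carry H3K27me3 in many cell types, 24 stayed under 1 TPM in every library, 9 of them at 0 in all, and 16 were tested: 4 rose, 7 fell and 5 were not called, with a median of -0.13. GATA4 fell to 23.3% of control, WT1 to 39% and IRX3 to 72.2%, and the highest value among the tested genes of this list was 211% of control. Of 8 genes reported as silenced through HOTAIR and PRC2, 6 stayed under 1 TPM in every library and 4 were tested. EPHA1 rose 1.3-fold (adjusted p = 2.1e-04), while PCDHB5 had a log2 fold change of -0.07 (adjusted p = 0.27), JAM2 0.2 (adjusted p = 0.38) and HOXD11 0.15 (adjusted p = 0.72). JAM2, at 0.69 to 0.97 TPM, and HOXD11, at 0.28 to 0.51 TPM, were near the floor, so little can be read from their values. H3K27me3 itself was not measured.

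Among luminal markers, 6 fell, 2 rose and 2 were not called, where 34.8% of all tested genes fell and 36.2% rose. The 8 of 10 that changed stand beside 71.1% of all tested genes, so that this count does not set them apart. ESR1, the estrogen receptor, fell to 32.1% of control, PGR, the progesterone receptor, to 36.4%, and ERBB3, a receptor kinase, rose to 184%. Among markers of other cell types, CD68 rose 1.47-fold and COL1A1 fell to 83.6%, and TP63 had a log2 fold change of 0.3 (adjusted p = 0.21).

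For EZH2 and SUZ12, the genes with the nearest profile over the 6 libraries were sought among 13277 other genes, by Euclidean distance of log2 CPM centred on the control mean. Nearest to EZH2 were RAC1 at a distance of 0.0576 (38.6% of control), TERF2IP at 0.0661 (39.5%) and ELP4 at 0.0727 (38.9%). Nearest to SUZ12 were SRP9, a signal recognition particle subunit, at a distance of 0.104 (24.6% of control), FSTL1 at 0.109 (23.9%) and DISP1 at 0.14 (23.9%). No other subunit gene was among these neighbours. Centring on the control mean makes the distance depend largely on the size of the fold change. The neighbours of EZH2 had log2 fold changes of -1.37, -1.34 and -1.36, and both EZH2 and PHF19 had -1.36. Around -1.35, 96 tested genes lay within the same 0.1 log2 bin. With only the nearest few kept, the absence of PHF19 cannot show whether its profile differs from that of EZH2.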

How the data were processed

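Per the submitters' processing notes, STAR 2.6.0c, RSEM 1.3.0 and the build hg19 were used; settings, strand use included, are not given in the sources used here. Per the file headers, the deposited gene and transcript tables hold expected counts, TPM and FPKM, and the transcript tables each transcript's share of its gene as a percent. FPKM were not used. Expected counts were rounded, filtered with filterByExpr (minimum count 10, minimum total 15), scaled by TMM and tested with edgeR 4.0.16 in R 4.3.3, without covariates, with Benjamini-Hochberg adjustment over all 14919 genes or 32285 transcripts. Transcript usage was tested with diffSpliceDGE. Ratios, shares and orders use the deposited TPM. The subunit genes had 636 to 14258 counts per library. Libraries of the same group differed beyond counting noise (chi-square over degrees of freedom 2.17 or higher). HOTAIR-N siRNA replicate 3 differed from replicates 1 and 2 by 7.01 and 7.75, against 2.37 between those. Control replicate 2 differed from replicates 1 and 3 by 8.78 and 8.88, against 2.17 between those. Deviations from the group mean were not positively correlated between libraries of the same replicate number (-0.04, -0.21 and -0.12). With 3 libraries a group, and a library standing apart in each, this cannot show whether the numbers pair the samples. The highest correlation across groups was 0.22, between HOTAIR-N siRNA replicate 3 and control replicate 2. The steps were tested on simulated counts. The subunit genes, lists and tests were chosen with earlier results of these data known. Named genes were all 10 subunits, lists of 5 or fewer in full, the 4 smallest p-values of longer lists, transcripts at 20% or more of their gene or called, and the 3 nearest profiles; some genes chosen so are not reported here. Alternatives were DESeq2 1.42.0 and limma 3.58.1, other scalings, filters and thresholds, the replicate block and each library left out. Control replicate 2 and HOTAIR-N siRNA replicate 3 were also left out together. Promoters come from RefSeq (GRCh38.p14) and transcript models from GENCODE v29, matched by name, with no coordinates carried between builds.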

Additional observations from a re-analysis of the deposited data

How the results depend on the processing

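Over 18 settings, 8 of the 10 subunit genes kept their direction and call; SUZ12 ranged from -2.1 to -1.79 and EZH2 from -1.38 to -1.26 on the log2 scale. JARID2 was 0.01 (adjusted p = 0.81) with library totals alone and -0.11 (adjusted p = 0.029) without control replicate 2 and HOTAIR-N siRNA replicate 3. RBBP7 (-0.23) was not past a 1.2-fold test (adjusted p = 0.76). Called transcripts numbered 16, against 9 at an adjusted p under 0.01, 13 with library totals alone, 14 with no filter, 11 with the replicate block and 11 to 14 with 1 library left out. Genes called for transcript usage numbered 1 with limma, 0 at an adjusted p under 0.01, 0 with the replicate block (PHF19 adjusted p = 0.12) and 0 to 1 with 1 library left out, the 1 being SUZ12 and not PHF19; the cause was not tested. The block changed the call of no subunit gene, and whether the numbers pair the samples is not known. Depth was 32.9 to 36.4 counts per CPM, and its effect on transcripts was not tested.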
